A study of Mus musculus with 12 samples.

Results

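The genes described here encode the complement and coagulation factors of blood plasma together with their close regulators. They are 42 genes of a list of names, found by matching each name to the gene names in a table of 54532 genes, and all 42 were in the table. The values were measured by RNA sequencing of primary hepatocytes, liver cells taken from 6-week-old mice, in 4 groups of 3 libraries. Mice were either G3bp1-Flox, the control genotype, or G3bp1-HKO, in which the RNA of G3bp1, a stress granule RNA-binding protein, was low in all 6 libraries. Cells of each genotype were treated with BSA, the control treatment in the comparisons below, or with PA. The series was set up to ask how G3BP1 affects NASH, a fatty liver disease with inflammation. The labels leave HKO, BSA and PA as abbreviations, and the sources used here do not state the dose or time of treatment, what drives the deletion, or whether PA was given together with BSA. They also do not say whether the 3 libraries of a group came from separate mice, so the p-values below measure only the spread between these libraries, which may be technical.

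Complement is a chain of plasma proteases that is started by antibody complexes, by sugars on microbes or by slow self-activation. All routes meet at the cleavage of C3 by enzymes called convertases, and the terminal components then assemble a pore in the target membrane. Coagulation is a second protease chain, in which thrombin turns soluble fibrinogen into fibrin, and the fibrinolytic system dissolves the clot again. Hepatocytes make most of these proteins and secrete them, several after a vitamin K-dependent modification.

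Library depth, recovered from the deposited values, was between 15020982 and 18418586 reads. G3bp1, the targeted gene, had 37.7 to 45.7 FPKM (read fragments scaled by transcript length and library depth, so a level per length) in the 6 Flox libraries and 7.03 to 8.5 FPKM in the 6 HKO libraries. The labelled cell type was checked with marker genes. Alb, the hepatocyte product albumin, was at 2890 FPKM or more in every library, and of 16 hepatocyte identity genes 5 were higher and 0 lower in HKO under each treatment. All 16 markers of Kupffer cells and macrophages, the resident phagocytes of the liver, were lower in HKO under both treatments, with median log2 fold changes of -4.19 in BSA and -3.72 in PA. Their summed level was 1950 to 2390 FPKM in Flox and 86.5 to 159 FPKM in HKO, with no marker at 0 in all libraries of a group. The other lists had lower summed levels, though not all had smaller changes (median log2 fold changes in BSA and PA follow). Of 6 tested liver endothelium genes, 4 were lower in BSA and 3 in PA (-0.54 and -0.4). The 1 tested platelet gene was lower in both (-4.45 and -4.22), as were the 2 tested genes of lymphocytes and neutrophils (-2.91 and -3.18). Of 2 tested cholangiocyte genes, 1 was higher in BSA and 2 in PA (0.49 and 0.89), while 0 of 10 stellate cell markers were high enough to test. The part of these other cells in the differences between genotypes was not tested, and in bulk RNA fewer cells of a type and less RNA per cell cannot be told apart.

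Of the 42 genes, 41 reached a mean of 1 FPKM over the 12 libraries and were tested, and Klkb1, the gene of plasma prekallikrein, was not. A gene was called where limma's adjusted p, corrected over all 9743 tested genes, was under 0.05, and fold changes are differences of log2(FPKM + 1), which understates the change of low genes. In HKO against Flox in BSA, 12 of the 41 were called (29.3%), beside 20.5% of all tested genes. Of these, 9 were higher, beside 9.63% of all genes, and 3 lower, beside 10.8%. In HKO against Flox in PA, 16 of 41 were called (39.0%), beside 35.7% of all genes: 8 higher, beside 16.9%, and 8 lower, beside 18.8%. The share called in PA was thus close to that of genes in general. Groups were free of overlap for 19 of the 41 in BSA (46.3%, beside 37.7% of all genes), with HKO above for 12 (19.7% of all) and below for 7 (18%). In PA it was 24 of 41 (58.5%, beside 52%), with 15 above (26%) and 9 below (26%). The median log2 fold change of the 41 genes was 0.27 in BSA and 0.08 in PA, against 0.04 and 0.00 over all tested genes. The same 6 genes were called in both treatments and in 1 direction: C8g, Masp2, Proz and Serpind1 were higher, and C2 and Cfb were lower. PA against BSA gave 0 calls of 41 in either genotype, beside 2.21% of all genes in Flox and 2.94% in HKO.

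**Figure D1:**
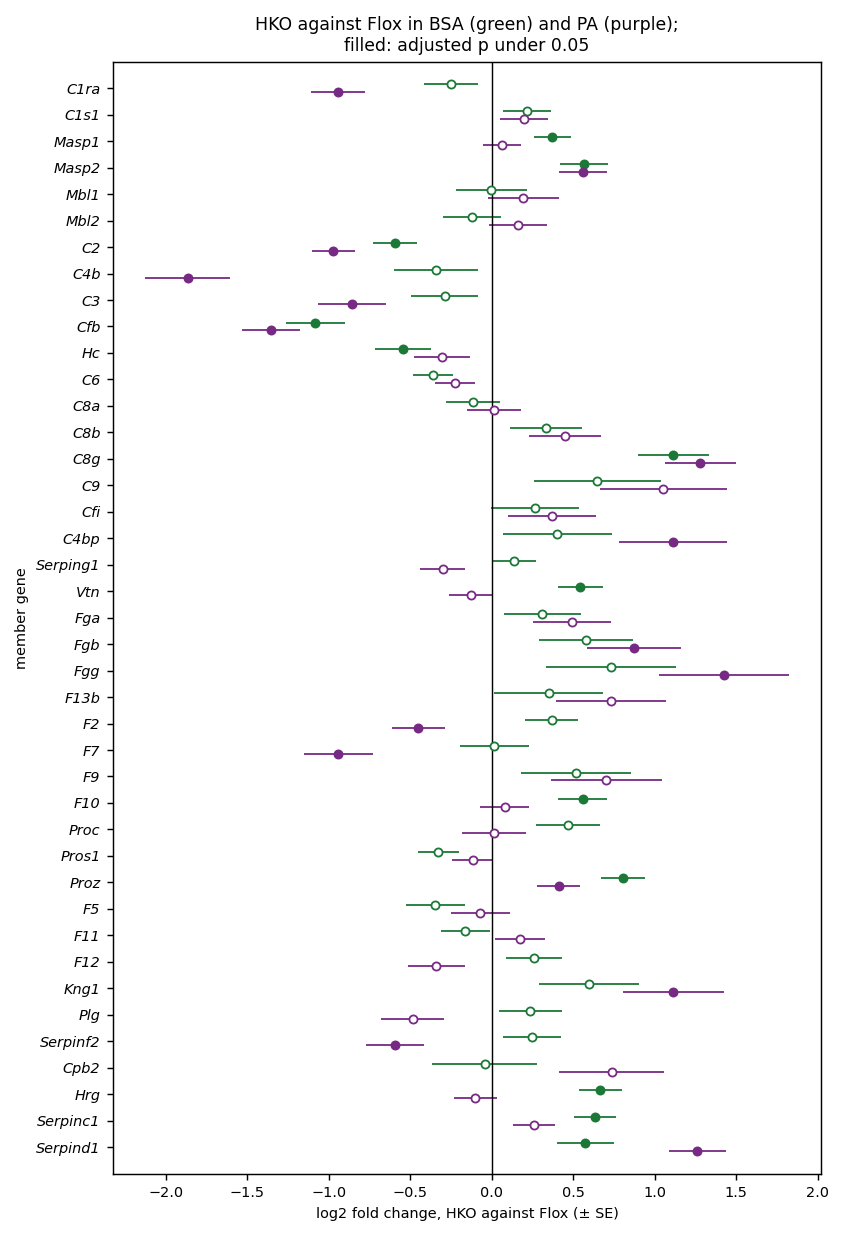
Log2 fold change of log2(FPKM + 1) between HKO and Flox (horizontal axis) for each of the 41 tested genes (vertical axis), in BSA (green) and in PA (purple), with bars of 1 standard error; filled circles passed an adjusted p of 0.05. C2 and Cfb lie to the left in both treatments and C8g, Masp2, Proz and Serpind1 to the right, while C4b has the lowest value in PA, -1.86.

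The genes at the centre of the complement chain included the largest falls. C3 is the protein that all routes cleave; C4b and C2 form the convertase of the classical and lectin routes, and Cfb, complement factor B, that of the alternative route. All 4 were lower in HKO than in Flox in PA, and C2 and Cfb also in BSA. C3, C2, Cfb and C4b all lie on chromosome 17, and Cfb and C2 are neighbours separated by 85 bases.

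C4b (ENSMUSG00000073418, chr17:34728380-34743882) had 122, 127 and 139 FPKM in the Flox BSA libraries and 159, 188 and 213 FPKM in Flox PA. In HKO it had 116, 104 and 87.4 FPKM in BSA and 29.6, 54.1 and 78.1 FPKM in PA. All 4 groups were thus separate, with Flox PA at the top and HKO PA at the bottom. The means were 187 ± 27.2 FPKM (SD, n = 3) in Flox PA and 54 ± 24.2 FPKM (SD, n = 3) in HKO PA, a log2 fold change of -1.86 (SE 0.26, limma adjusted p = 0.000104). In BSA the log2 fold change was -0.34 (adjusted p = 0.405). The PA effect was 0.51 in Flox (adjusted p = 0.347) and -1.01 in HKO (adjusted p = 0.0556), and the difference between them, -1.52 (SE 0.37), had an adjusted p of 0.0871. C4a, the near-identical copy of C4b, ran the other way at a far lower level, from 0.641 to 0.83 FPKM in the 6 Flox libraries to between 1.24 and 4.02 FPKM in HKO, and was called higher in both treatments. The sources used here do not state how reads shared by the 2 copies were assigned, so both values are uncertain.

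C3 (ENSMUSG00000024164, chr17:57203970-57228136) was the most abundant of the 42 genes in Flox BSA, at 632, 655 and 658 FPKM. It had 577, 627 and 664 FPKM in Flox PA, 572, 575 and 454 FPKM in HKO BSA, and 230, 386 and 454 FPKM in HKO PA. Every HKO library lay below every Flox library of the same treatment. The log2 fold change was -0.86 in PA (SE 0.21, adjusted p = 0.00657) and -0.29 in BSA (adjusted p = 0.376); the difference between the 2 had an adjusted p of 0.322. HKO PA library 1 had the lowest C3, C4b and Cfb of its group, and without it the log2 fold change in PA was -0.57 for C3, -1.15 for Cfb and -1.50 for C4b, all still called. C3 and C4b have long transcripts, and log2 fold changes over all tested genes fell with length in PA (Spearman's rho -0.32, across genes, which are not independent); with the trend on length removed, the values were -0.74 for C3 and -1.72 for C4b.

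C2 (ENSMUSG00000024371, chr17:34862604-34898265) had 7.1, 7.4 and 8.05 FPKM in Flox BSA, against 4.66, 4.23 and 5.06 FPKM in HKO BSA. In PA it had 7.34, 8.32 and 10.2 FPKM in Flox and 4.04, 3.59 and 4 FPKM in HKO. No Flox library overlapped an HKO library. The log2 fold changes were -0.59 in BSA (SE 0.13, adjusted p = 0.00514) and -0.97 in PA (SE 0.13, adjusted p = 7.99e-05). Cfb (ENSMUSG00000090231, chr17:34856374-34862518) had 2.62 to 3.34 FPKM in Flox BSA and 2.68 to 4.12 FPKM in Flox PA, against 0.882 to 1 FPKM and 0.342 to 1.27 FPKM in HKO. Again the genotypes did not overlap, and the log2 fold changes were -1.08 in BSA (SE 0.18, adjusted p = 0.00053) and -1.35 in PA (SE 0.18, adjusted p = 6.45e-05). The calls of C2 and Cfb held in every alternative run in which they were tested, in both treatments. Cfb was too low for the run with a mean of at least 5 FPKM. For this low gene a pseudocount of 0.1 gave -1.63 and -2.13 and limma-voom -1.71 and -2.23. Gm20547, listed at 0 FPKM, shares 2246 of 2825 exon bases with Cfb and 1656 of 3872 with C2 on the same strand. How reads in shared exons were counted is not stated, so the levels of both genes are uncertain.

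**Figure D2:**
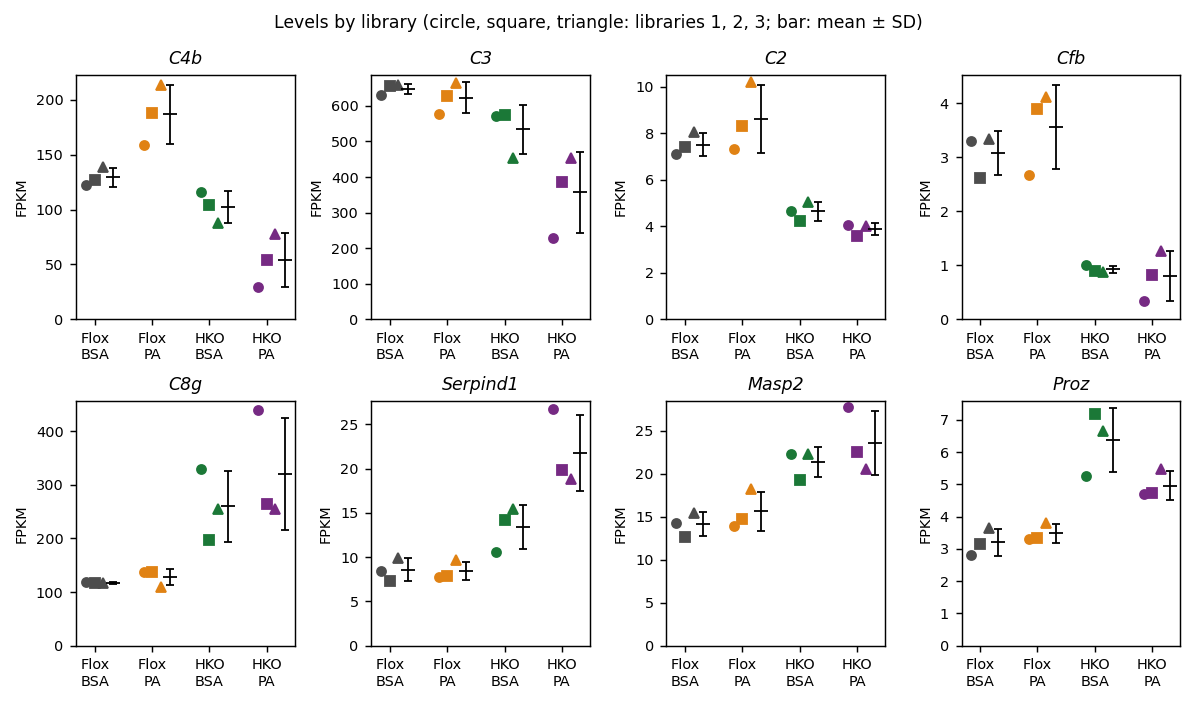
FPKM of 8 genes in each library (points; circle, square and triangle are libraries 1, 2 and 3) by group, with the mean and 1 SD as bars (n = 3). The upper row holds C3 and the convertase genes, where all HKO points lie below the Flox points of the same treatment; the lower row holds the 4 genes called higher in both treatments, where all HKO points lie above.

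Among the 6 genes that start the lectin and classical routes, 2 were higher in HKO in BSA, and 1 was higher and 1 lower in PA. Masp2 encodes the protease that, bound to mannose-binding lectin, cleaves C4 and C2. It had 12.6 to 15.4 FPKM in Flox BSA and 19.3 to 22.3 FPKM in HKO BSA, then 13.9 to 18.2 and 20.5 to 27.7 FPKM in PA, with no overlap. The log2 fold change was 0.56 in both treatments (SE 0.15; adjusted p = 0.0145 in BSA and 0.0102 in PA), and the BSA call was lost without Flox BSA library 2 (0.49) or HKO BSA library 3 (0.53). Of its 3307 exon bases, 1817 are shared with Tardbp on the opposite strand, which had a mean of 13.6 FPKM; since the counting is not stated to use strand, reads of the 2 genes cannot be told apart.

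C1ra encodes the first protease of the classical complex. It had 43, 53.2 and 56.2 FPKM in Flox PA and 20.9, 25.7 and 31.7 FPKM in HKO PA, with no overlap, and a log2 fold change of -0.94 (SE 0.17, adjusted p = 0.000774). In BSA the groups overlapped (-0.25, adjusted p = 0.336). C1s1, which encodes the partner protease in the same complex, lies 6901 bases away on chromosome 6 and had log2 fold changes of 0.22 in BSA and 0.20 in PA, neither called. Masp1, a related lectin-route protease, had 1.18 to 1.41 FPKM in Flox BSA and 1.91 to 2 FPKM in HKO BSA (0.37, adjusted p = 0.0363), a call lost when any 1 of 5 libraries was left out: Flox BSA 1, 2 or 3, or HKO BSA 2 or 3 (0.34 to 0.41). It was also lost with no filter on low values (0.37), while a pseudocount of 0.1 gave 0.57 and limma-voom 0.62, both called. The mannose-binding lectins themselves were not called, with Mbl1 at -0.002 and 0.19 and Mbl2 at -0.12 and 0.16 in BSA and PA. C1ra and C1s1 have near-copies in the mouse genome, C1rb and C1s2, and the split of shared reads is not given.

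The 6 terminal components did not move as a group. C8g, the gene of the gamma chain of C8, which belongs to the lipocalin family, was higher in HKO in both treatments, whereas the genes of the other C8 chains, C8a and C8b, were not called. C8g (ENSMUSG00000015083, chr2:25498651-25501719) had 119, 117 and 116 FPKM in Flox BSA and 137, 137 and 110 FPKM in Flox PA. HKO libraries had 329, 197 and 255 FPKM in BSA and 440, 265 and 255 FPKM in PA. All 6 HKO values lay above all 6 Flox values. The log2 fold changes were 1.11 in BSA (SE 0.22, adjusted p = 0.002) and 1.28 in PA (SE 0.22, adjusted p = 0.000581), and both calls held in every alternative run. C8a had values of 0.923-fold in BSA and 1.01-fold in PA, and C8b of 1.26-fold and 1.37-fold. In PA, C8b lay above Flox without overlap, at 44.1 to 45.5 FPKM in HKO against 29 to 37 FPKM. With only the groups compared, C8b was called higher there (0.45). The ratio of C8g to C8a within a library was 8.12 to 8.36 in Flox BSA and 9.91 to 11.5 in Flox PA, against 12.3 to 33.6 in HKO BSA and 21.6 to 32.2 in HKO PA. That of C8g to C8b overlapped between genotypes in BSA, at 2.49 to 3.77 in Flox and 3.4 to 11 in HKO. In PA it did not, at 2.96 to 4.73 and 5.79 to 9.66.

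Hc, which encodes complement component C5, the start of the terminal chain, had 10.5, 12.9 and 8.61 FPKM in Flox BSA and 6.89, 6.8 and 6.99 FPKM in HKO BSA. The groups did not overlap, and Hc was called lower (-0.55, SE 0.17, adjusted p = 0.0368). That call was lost when Flox BSA 1 or 2 or any of the 3 HKO BSA libraries was left out (-0.41 to -0.56), with the length trend removed (-0.51) and with no filter on low values (-0.55). In PA the groups overlapped (-0.30, adjusted p = 0.178). C6, which joins the growing pore next, lay below Flox without overlap in both treatments but was not called (-0.36, adjusted p = 0.0557 in BSA; -0.23, adjusted p = 0.168 in PA). C9, whose copies line the pore, was not called either (0.65, adjusted p = 0.283 in BSA; 1.05, adjusted p = 0.0505 in PA). Its PA values did not overlap, at 31.9 to 66.2 FPKM in HKO and 19.4 to 21 FPKM in Flox. C9 was called higher in PA with limma-voom, with a mean of at least 5 FPKM and with only the groups compared. The same held without HKO PA 3 and without both HKO libraries numbered 1. It was not called without HKO PA 1 alone (0.74), under quantile normalization or with the length trend removed.

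**Figure D3:**
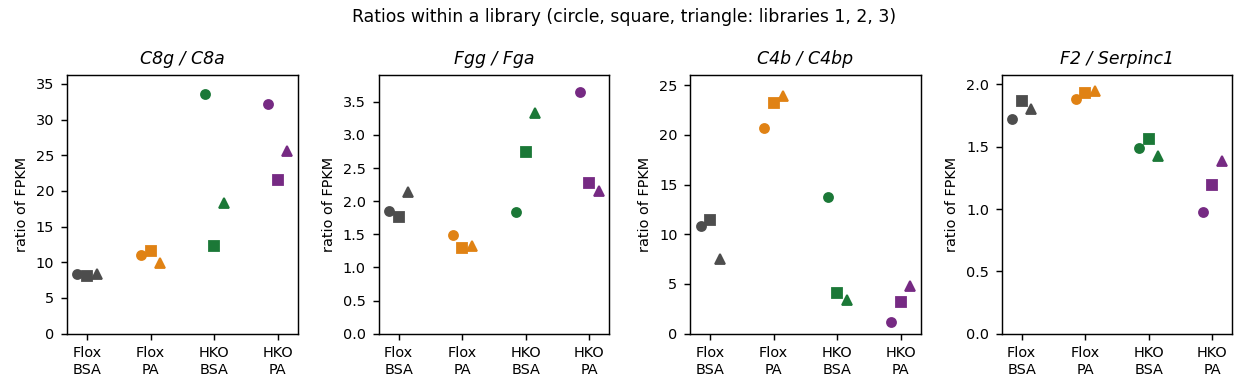
Ratio of 2 genes' FPKM within each library (points; circle, square and triangle are libraries 1, 2 and 3) by group, with a linear axis from 0. The ratio of C8g to C8a lies at 12.3 or more in HKO and 11.5 or less in Flox, and that of F2 to Serpinc1 at 1.56 or less in HKO and 1.73 or more in Flox. The ratios of Fgg to Fga and of C4b to C4bp overlap between genotypes in BSA but not in PA.

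Of the 4 regulators, 1 was called in each treatment, and not the same gene. Vtn, the gene of vitronectin, which blocks the terminal complex and binds cells, had 547, 506 and 574 FPKM in Flox BSA and 895, 737 and 749 FPKM in HKO BSA, without overlap (0.55, SE 0.14, adjusted p = 0.0118). Its PA values overlapped between genotypes (-0.13, adjusted p = 0.499), and the difference between the 2 fold changes had an adjusted p of 0.132. The Vtn call was lost without Flox BSA library 2 (0.50) and under quantile normalization (0.40). C4bp, whose product binds C4b and speeds the decay of its convertase, had 7.68, 8.1 and 8.9 FPKM in Flox PA and 24.8, 16.8 and 16.3 FPKM in HKO PA. These did not overlap, and the log2 fold change was 1.11 (SE 0.33, adjusted p = 0.0196). That call was lost without Flox PA 1 (1.07), Flox PA 2 (1.10) or HKO PA 1 (0.93), and with no filter on low values (1.11). The ratio of C4b to C4bp within a library was 20.7 to 23.9 in Flox PA and 1.19 to 4.8 in HKO PA. In BSA it overlapped between genotypes, at 7.56 to 11.5 in Flox and 3.39 to 13.8 in HKO. The PA gap joins a gene called lower with a gene called higher, so it is not a separate result. Cfi, the protease that inactivates C3b and C4b, and Serping1, the inhibitor of C1r and C1s, were not called.

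Fibrinogen is built from 3 chains whose genes, Fgg, Fga and Fgb, lie together on chromosome 3, with 11026 bases between Fgg and Fga and 6513 between Fga and Fgb. Fgg (ENSMUSG00000033860, chr3:83007724-83015049) had 135, 143 and 152 FPKM in Flox PA and 605, 326 and 293 FPKM in HKO PA. Fgb had 152, 154 and 157 FPKM in Flox PA and 360, 266 and 237 FPKM in HKO PA. Fga had 90.4, 110 and 115 FPKM against 166, 143 and 136 FPKM. None of the 3 genes overlapped between genotypes in PA. Fgg was higher in HKO (1.43, SE 0.40, adjusted p = 0.014) and so was Fgb (0.87, SE 0.29, adjusted p = 0.0309), while Fga was not called (0.49, SE 0.24, adjusted p = 0.12). Without HKO PA library 1, which had the highest value of all 3 genes, Fgg (1.10) and Fgb (0.70) were no longer called; Fgb was also lost without any single Flox PA library or HKO PA library 2 (0.86 to 0.92) and under quantile normalization (0.56). With no filter on low values neither call held (1.43 and 0.87). F13b, the carrier subunit of the enzyme that crosslinks fibrin, had a log2 fold change of 0.73 (adjusted p = 0.103).

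In BSA none of the 4 fibrin-forming genes was called, and HKO BSA library 1 lay apart from the other libraries of its group. Fgg had 183, 181 and 313 FPKM in Flox BSA and 166, 519 and 554 FPKM in HKO BSA. HKO BSA library 1 thus lay below all 3 Flox BSA libraries, and the others lay above them. HKO BSA 1 stood at least 1.5-fold beyond both other libraries of its group for 13 of the 41 tested genes (31.7%), beside 18.2% of all tested genes. It was below them for 11, beside 1082 of all 9743 tested genes: C8b, C9, Cfi, C4bp, Fga, Fgb, Fgg, F13b, F9, Kng1 and Cpb2. Alb had the same pattern, with 4090, 15600 and 14000 FPKM in HKO BSA and 4140 to 4520 FPKM in Flox BSA. HKO PA library 1 stood apart for 9 genes (22.0%), beside 21.2% of all. Of these, 6 were above the other libraries, beside 931 of all 9743 tested genes: C8g, C9, Fgg, F13b, F9 and Cpb2. No label separates these libraries from the rest of their groups.

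**Figure D4:**
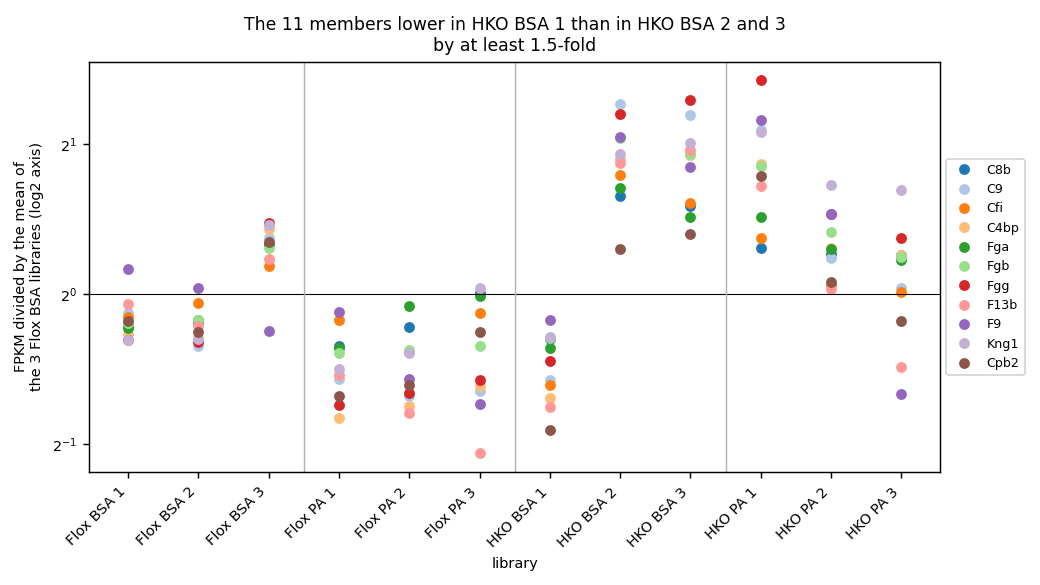
FPKM in each library divided by the mean of the 3 Flox BSA libraries (vertical axis, log2 scale) for the 11 genes that HKO BSA library 1 held at least 1.5-fold below both other HKO BSA libraries. In HKO BSA 1 all 11 points lie below the Flox BSA mean, and in HKO BSA 2 and 3 all lie above it.

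In a further fit both HKO libraries numbered 1 were left out. In BSA it called 27 of 41 genes, 20 higher and 7 lower, beside 36.7% of all tested genes, and in PA 20 of 41, 11 higher and 9 lower, beside 37.6%. Among the added higher calls in BSA were Fgg (1.29), C9 (1.23), Kng1 (1.01), Fgb (1.005), C4bp (0.90), F9 (0.85), F13b (0.83), Cfi (0.69), Fga (0.63) and C8b (0.63), each a log2 fold change. C3 (-0.34) and F5 (-0.44) were among the added lower calls. Without HKO BSA 1 alone, 21 were called in BSA, 19 of them higher, beside 24.4% of all. With 2 HKO libraries left per treatment, this fit takes its spread mainly from the Flox groups.

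The sequences in front of 9 of these 11 genes, those with an entry in the promoter table, are shown because their levels lay low together in HKO BSA library 1. Promoters were taken from RefSeq (GRCm38.p6), which matched 33 of the 42 genes, and each stretch has 170 bases and ends upstream of the gene's start both in RefSeq and in the expression table. Capitals mark matches to 3 motifs of liver transcription factors, searched on both strands in the 250 bases upstream of the RefSeq start: HNF1 (GTTAAT, any base, then ATT), C/EBP (TTGCNNAA) and STAT (TTCNNNGAA). No motif overlapped another in the stretches printed.
Fgg, chr3:83007554-83007723, plus strand: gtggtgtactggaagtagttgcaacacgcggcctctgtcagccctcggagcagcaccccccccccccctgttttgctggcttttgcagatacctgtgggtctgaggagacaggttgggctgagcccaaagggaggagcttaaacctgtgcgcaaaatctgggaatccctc
Fga, chr3:83025906-83026075, plus strand: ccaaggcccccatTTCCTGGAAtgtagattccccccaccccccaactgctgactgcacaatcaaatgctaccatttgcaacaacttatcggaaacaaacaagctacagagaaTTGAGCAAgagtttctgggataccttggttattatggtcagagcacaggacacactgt
Fgb, chr3:83049864-83050033, minus strand: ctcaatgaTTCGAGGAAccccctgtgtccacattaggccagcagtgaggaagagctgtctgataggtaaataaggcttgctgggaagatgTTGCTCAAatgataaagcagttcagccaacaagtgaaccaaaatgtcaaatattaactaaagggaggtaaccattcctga
F13b, chr1:139501532-139501701, plus strand: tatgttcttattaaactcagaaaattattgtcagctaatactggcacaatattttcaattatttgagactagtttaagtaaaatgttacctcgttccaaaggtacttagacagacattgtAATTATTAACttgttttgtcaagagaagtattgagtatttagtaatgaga
C9, chr15:6445157-6445326, plus strand: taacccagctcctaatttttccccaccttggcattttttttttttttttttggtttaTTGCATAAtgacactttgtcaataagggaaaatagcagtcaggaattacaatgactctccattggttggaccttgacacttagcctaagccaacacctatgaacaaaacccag
C8b, chr4:104766147-104766316, plus strand: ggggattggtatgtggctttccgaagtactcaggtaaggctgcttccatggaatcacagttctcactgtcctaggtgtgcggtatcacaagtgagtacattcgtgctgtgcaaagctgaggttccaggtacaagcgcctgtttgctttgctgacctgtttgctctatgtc
C4bp, chr1:130661633-130661802, minus strand: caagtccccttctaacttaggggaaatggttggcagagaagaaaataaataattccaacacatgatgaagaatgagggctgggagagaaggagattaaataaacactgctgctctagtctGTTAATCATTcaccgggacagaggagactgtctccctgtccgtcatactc
F9, chrX:59999294-59999463, plus strand: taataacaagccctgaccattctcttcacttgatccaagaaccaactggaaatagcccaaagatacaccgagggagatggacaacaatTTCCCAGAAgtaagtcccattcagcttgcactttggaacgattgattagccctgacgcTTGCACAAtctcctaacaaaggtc
Cpb2, chr14:75242117-75242286, plus strand: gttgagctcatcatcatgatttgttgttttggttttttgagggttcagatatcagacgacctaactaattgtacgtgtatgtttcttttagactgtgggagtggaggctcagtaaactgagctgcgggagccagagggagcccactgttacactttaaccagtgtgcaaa
The HNF1-type motif was in 3 of the 33 matched promoters (9.09%), those of C4bp, F13b and Hc, and in 0.411% of all 27025 promoters. The C/EBP-type motif was in 9 (27.3%), beside 9.55% of all, among them Fga, Fgb, F9, C9 and C3. The STAT-type motif was in 6 (18.2%), beside 7.18%, with Fga, Fgb and F9 holding it together with the C/EBP type. Fgg, C8b and Cpb2 held none of the 3 in this window, which says only that these letters were not found there. HNF4 (CAAAGTCCA) and ISRE (GAAA, any 2 bases, then GAAA) letters were in 0 of the 33, beside 0.381% and 3.04% of all, and NF-kB letters (GGGA, any 4 bases, then CC) in 4 (12.1%), beside 17.3%. HNF3 letters (TGTTTGC), not put in capitals, were in 2 (6.06%), beside 4.3%: C1s1 and C8b, which held 2 matches in the stretch printed. TATA letters (TATAAA) were in 3 (9.09%), beside 13%. These matches are letters in a window, and no binding was measured.

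The 7 vitamin K-dependent genes encode proteases and cofactors that need gamma-carboxylation to bind membranes. In BSA 2 were higher in HKO, and in PA 1 was higher and 2 lower. Proz, the gene of protein Z, a cofactor for the inhibition of factor X, had 2.81, 3.16 and 3.64 FPKM in Flox BSA and 5.27, 7.19 and 6.66 FPKM in HKO BSA. In PA it had 3.3, 3.34 and 3.82 FPKM against 4.71, 4.72 and 5.47 FPKM. The genotypes did not overlap in either treatment (0.81, SE 0.13, adjusted p = 0.000556 in BSA; 0.41, SE 0.13, adjusted p = 0.0296 in PA). The PA call was lost without Flox PA 1 (0.38), Flox PA 2 (0.39) or HKO PA 3 (0.35). F10, the gene of factor X, lies 4237 bases from Proz and 1498 from F7 on chromosome 8.

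F10 had 47.6, 50 and 60.5 FPKM in Flox BSA and 82.3, 78.3 and 72.7 FPKM in HKO BSA, without overlap (0.56, SE 0.15, adjusted p = 0.0178), a call lost without Flox BSA 1 (0.49) or Flox BSA 2 (0.53). In PA the values overlapped (0.08). F7, the gene of factor VII, which starts coagulation with tissue factor, did the reverse: its BSA values overlapped (0.02), and in PA it had 26.6, 44.9 and 43.2 FPKM in Flox and 16.4, 17.4 and 23.7 FPKM in HKO. F7 was lower there (-0.94, SE 0.21, adjusted p = 0.00399), with no overlap. The test of the difference between treatments passed for neither gene (adjusted p = 0.16 for F7 and 0.272 for F10).

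F2, the gene of prothrombin, had 167, 168 and 191 FPKM in Flox BSA and 249, 220 and 212 FPKM in HKO BSA, which did not overlap but was not called (0.37, adjusted p = 0.134). In PA it had 192, 230 and 240 FPKM in Flox and 134, 150 and 205 FPKM in HKO, where HKO library 3 overlapped Flox library 1. F2 was called lower in PA (-0.45, SE 0.16, adjusted p = 0.0463), a call lost without Flox PA 2 or 3 or HKO PA 1 or 2 (-0.32 to -0.42). It was also lost with only the groups compared (-0.45), without both HKO libraries numbered 1 (-0.32), with the length trend removed (-0.33) and with no filter on low values (-0.45), and quantile normalization gave -0.70. The ratio of F2 to Serpinc1, the gene of its main inhibitor antithrombin, was 1.73 to 1.95 in Flox and 0.978 to 1.56 in HKO. Besides this ratio and that of C8g to C8a, C3 to Cfb and Fgb to Fga also separated the genotypes in both treatments. Plg to Serpinf2, Mbl2 to Mbl1 and C8b to C8a overlapped in both, and the other pairs computed separated them only in PA. A ratio that holds a gene called above is not a separate result, and how often gene pairs in general separate the genotypes was not tested. F9, Proc and Pros1, the genes of factor IX, protein C and protein S, were not called in either treatment. F5, the cofactor of factor X, was not called (-0.35 in BSA and -0.07 in PA).

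Of the contact system, which starts coagulation on charged surfaces, 3 of 4 genes were tested. Kng1, the gene of kininogen, the source of bradykinin, had 146, 157 and 212 FPKM in Flox PA and 437, 342 and 334 FPKM in HKO PA. The groups did not overlap, and Kng1 was higher (1.11, SE 0.31, adjusted p = 0.0135), a call lost without Flox PA 1 (1.01) or HKO PA 1 (0.99), under quantile normalization (0.82) and with no filter on low values (1.11). Its close copy Kng2 was also called higher in PA (1.43), so the split between them is uncertain. F11 and F12, the genes of factors XI and XII, were not called. Klkb1 had 0.0676 to 0.16 FPKM in Flox and 0.239 to 0.709 FPKM in HKO, from 6 to 50 reads per library, and these values were too low to test. Klkb1 shares 2267 of 5249 exon bases with Gm45753 on the same strand (listed at 0 FPKM), so its low value may not be its true level.

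Among the 4 genes of fibrinolysis, 1 was higher in BSA and 1 lower in PA. Hrg, the gene of histidine-rich glycoprotein, a plasminogen and heparin binder, had 79.6, 77.1 and 83.4 FPKM in Flox BSA and 129, 129 and 124 FPKM in HKO BSA. The 3 HKO values were close together and above all Flox values (0.66, SE 0.13, adjusted p = 0.00236). In PA the groups overlapped (-0.10, adjusted p = 0.57), and the difference between the treatments was -0.77 (adjusted p = 0.0894). Serpinf2, the gene of the main plasmin inhibitor, had 63.1, 93.5 and 80.7 FPKM in Flox PA and 49.8, 47 and 57.9 FPKM in HKO PA, without overlap, and was called lower (-0.59, SE 0.18, adjusted p = 0.0196). That call was lost without Flox PA 2 or 3 or HKO PA 1 or 2 (-0.47 to -0.57). Plg, the gene of plasminogen, and Cpb2, a carboxypeptidase that slows clot lysis, were not called.

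The anticoagulant serpins were both higher in HKO in BSA. Serpind1, the gene of heparin cofactor II, a thrombin inhibitor, had 8.49, 7.34 and 9.96 FPKM in Flox BSA and 7.72, 7.93 and 9.65 FPKM in Flox PA. HKO libraries had 10.6, 14.2 and 15.4 FPKM in BSA and 26.7, 19.8 and 18.8 FPKM in PA. The genotypes did not overlap, and HKO PA lay above HKO BSA. The log2 fold changes were 0.57 in BSA (SE 0.17, adjusted p = 0.0317) and 1.26 in PA (SE 0.17, adjusted p = 9.61e-05). The BSA call was lost without Flox BSA 1 or 2 or HKO BSA 2 or 3 (0.47 to 0.57), with the length trend removed (0.43) and with no filter on low values (0.57), while the PA call held in every alternative. Serpinc1 had 97, 90 and 106 FPKM in Flox BSA and 167, 141 and 149 FPKM in HKO BSA, without overlap (0.64, SE 0.13, adjusted p = 0.00314). In PA Serpinc1 was not called (0.26, adjusted p = 0.136).

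**Figure D5:**
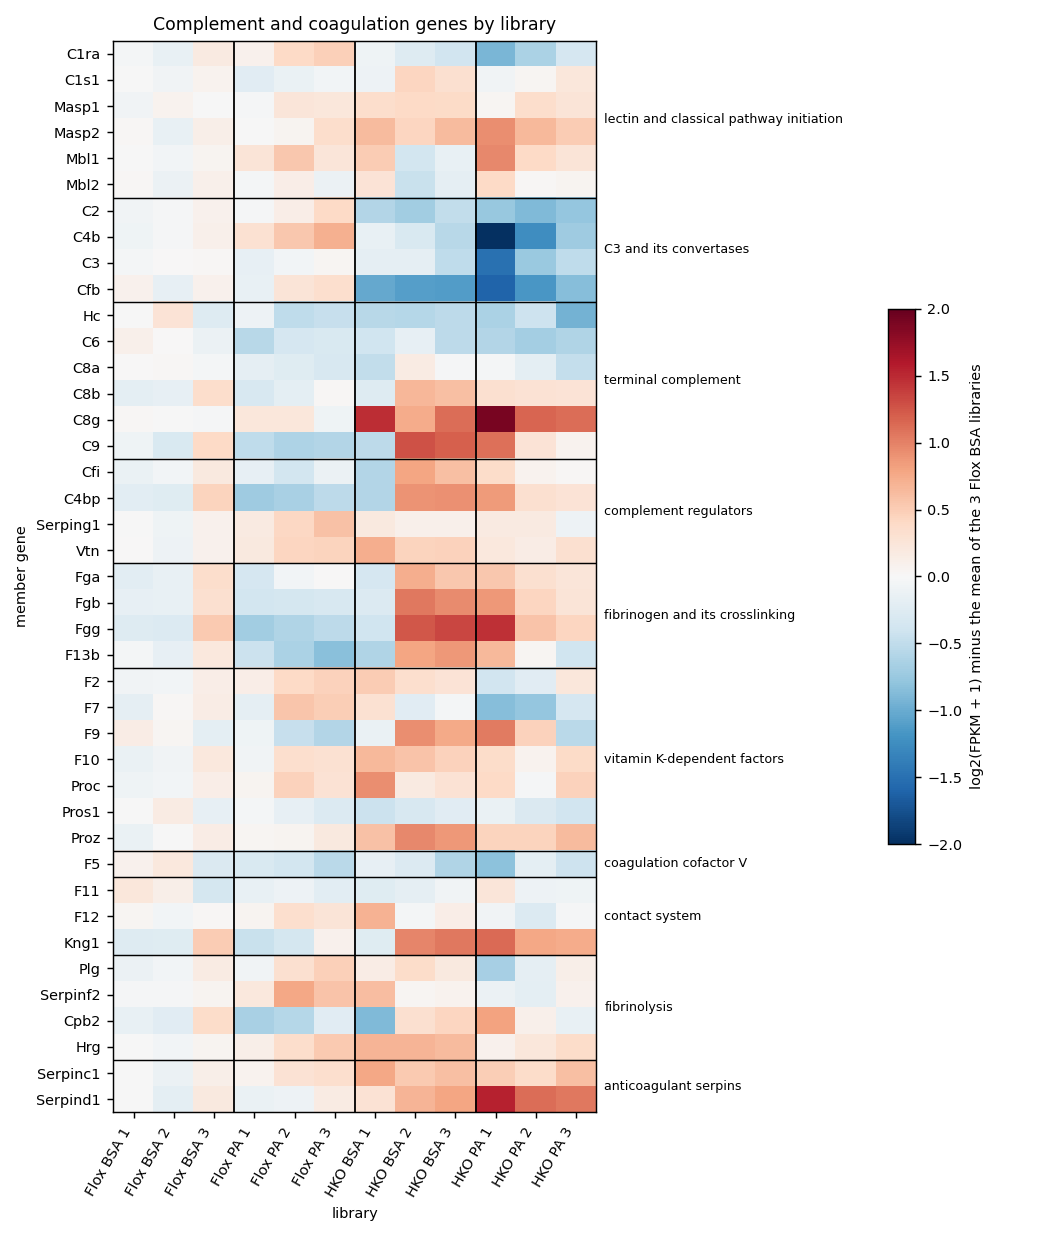
Log2(FPKM + 1) of each tested gene (rows, by role) in each of the 12 libraries (columns), minus the mean of the 3 Flox BSA libraries; red is above and blue below, and the colour scale ends at 2 in each direction. The convertase rows are blue in the HKO libraries and C8g, Masp2, Proz and Serpind1 red; HKO BSA 1 differs in colour from HKO BSA 2 and 3 in the fibrinogen rows.

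The comparison of PA with BSA asked which genes moved with the treatment within a genotype. No gene of the 41 was called in Flox or in HKO. At an unadjusted p under 0.05 were 6 genes in Flox (14.6%, beside 15.9% of all tested genes) and 12 in HKO (29.3%, beside 20.8%). Limma-voom on recovered reads called 0 in Flox (beside 2.07% of all) and 1 in HKO, C4b (beside 3.1%). In HKO the PA libraries were all on 1 side of the BSA libraries for 12 of 41 genes (29.3%, beside 18.2% of all tested genes), 11 of them below (9.1% of all genes) and 1, Serpind1, above (9.1%). In Flox it was 16 of 41 (39.0%), equal to the 39% of all genes. Serpind1 had a log2 fold change of 0.66 in HKO (adjusted p = 0.0586), and C3, F2 and F7 had -0.63, -0.49 and -0.67 (adjusted p = 0.118, 0.117 and 0.105). Without HKO PA library 3, 5 genes were called in HKO, beside 7.96% of all tested genes: Serpind1 higher and C3, C4b, F2 and F7 lower.

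Flox libraries varied less than HKO libraries: the median SD of log2 values over the 41 genes was 0.144 and 0.169 in Flox and 0.264 and 0.215 in HKO, in BSA and PA. Over all tested genes it was 0.104 and 0.114 in Flox and 0.21 and 0.223 in HKO, so the difference was not particular to the 41. A fit on the Flox groups alone called 9 of 41 genes for PA against BSA, beside 15.8% of all tested genes. C4b (0.51), Serpinf2 (0.52), Serping1 (0.39), Vtn (0.35) and Mbl1 (0.35) were higher there, and F13b (-0.64), C4bp (-0.63), C9 (-0.57) and C6 (-0.40) lower. The test of whether the PA effect differed between genotypes called 0 of the 41 genes, beside 0.267% of all. At an unadjusted p under 0.05 were 12 (29.3%, beside 17.4% of all), and limma-voom also called 0, beside 0.308%. Without HKO PA 3 the limma fit called 3, beside 2.72% of all. Each had the lower value in HKO: C4b (-1.84), F2 (-0.99) and Hrg (-0.84). The 2 PA comparisons and the 2 genotype comparisons share libraries pairwise, so their values are not independent.

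A wider list of 84 other genes of these pathways, 81 of them in the table and 51 tested, gave 31 calls in BSA (12 higher, 19 lower; 60.8%, beside 20.5% of all genes) and 32 in PA (14 higher, 18 lower; 62.7%, beside 35.7%). The largest fold changes in both treatments were in the C1q chains and in Cfp, the gene of properdin, which stabilises the alternative convertase. C1qb fell from 168 to 191 FPKM in Flox BSA to between 4.72 and 11.1 FPKM in HKO BSA (-4.38, adjusted p = 2.22e-09), C1qc (-4.27) and C1qa (-4.23) fell alike, and Cfp fell from 84.8 to 95.3 FPKM to between 2.96 and 6.05 FPKM (-4.18). In PA the values were -4.46 for C1qa, -4.23 for C1qc, -4.18 for C1qb and -3.96 for Cfp. The C1q genes are also in the macrophage list above. All 6 tested complement receptors were lower in BSA (beside 10.8% of all tested genes) and 5 of 6 in PA (beside 18.8%).

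Of 7 tested genes of the vitamin K cycle and factor export, 2 were higher in BSA (28.6%, beside 20.5% of all tested genes called in either direction). Limma called 0 in PA (beside 35.7%), with 2 (28.6%, beside 46.6% of all tested genes) at an unadjusted p under 0.05. Of 7 further fibrinolysis genes, 3 were higher and 3 lower in each treatment (85.7% called). Of 5 further coagulation genes, 2 were higher and 1 lower in each (60%). The shares of all tested genes called were 20.5% in BSA and 35.7% in PA. F3, the gene of tissue factor, singled out after its values were seen, had 6.79 to 7.53 FPKM in Flox BSA and 13.9 to 15.4 FPKM in HKO BSA (0.91, adjusted p = 0.00065), and 1.44 in PA (adjusted p = 7.97e-06). PA against BSA called 2 of the 51 in Flox (3.92%, beside 2.21% of all tested genes): Vsig4, a macrophage complement receptor (-0.93), and Procr, the protein C receptor (0.52). It called 3 in HKO (5.88%, beside 2.94%): F2rl1, a protease-activated receptor (-0.88), Clu, the gene of clusterin (-0.58), and Procr (0.52). By limma, the difference in PA effect was called for 0 of the 51 genes, beside 0.267% of all. At an unadjusted p under 0.05 were 18 (35.3%, beside 17.4% of all), and F2rl1 had a limma adjusted p of 0.055.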

How the data were processed

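RNA was sequenced from 12 libraries with the NEBNext Ultra RNA kit, per the labels, and reads were assigned to GRCm38 (mm10), per the submitters' processing notes; the sources used here do not state the aligner, counter, annotation or strand setting. The authors deposited 1 table of FPKM per gene. Values were whole multiples of 1 read (100% within 0.01 of a whole number, for up to 1000 reads), which gave the depth of each library. Genes whose mean over the libraries reached 1 FPKM were fitted as log2(FPKM + 1) with limma 3.58.1 (R 4.3.3; trended variance, 4 group means, 2-sided, Benjamini-Hochberg over all tested genes, threshold 0.05). Libraries were grouped by the genotype and treatment labels. The script was tested on simulated data. Alternatives were another pseudocount (0.1), filters, trimmed mean and quantile scaling, single libraries or both HKO libraries numbered 1 left out, the compared groups alone and the replicate number as a block. A planned count test on recovered reads was not run, and limma-voom on these reads was used in its place. Limma-voom and removal of the trend on transcript length were added after the data were seen. Named genes are all members and, of the wider list, the 4 with the largest called change per comparison; C4a and Kng2 were added as close copies of members, and F3 after its values were seen. The members and lists were chosen with earlier results of these data known. Sequences are from RefSeq, and members without an entry have none shown.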

Additional observations from a re-analysis of the deposited data

How the results depend on the processing

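No direction of a called gene reversed under any alternative. Of 12 calls in BSA 6 (C2, C8g, Cfb, Hrg, Proz and Serpinc1) held in all in which the gene was tested. Of 16 in PA, 9 did (C1ra, C2, C3, C4b, C8g, Cfb, F7, Masp2 and Serpind1). Cfb and Proz were too low for the run with a mean of at least 5 FPKM. With single libraries left out, HKO against Flox in BSA called 6 to 21 genes. The 6 were without Flox BSA 2 (beside 13.7% of all tested genes) and the 21 without HKO BSA 1 (beside 24.4%). In PA it called 10 to 20 genes, the 10 without HKO PA 1 (beside 24.7%) and the 20 without HKO PA 3 (beside 43.1%). PA against BSA called 0 in Flox (beside 0.657% to 1.73%) and 0 to 5 in HKO, the 5 without HKO PA 3 (beside 7.96%). The difference in PA effect gave 0 to 3, the 3 also without HKO PA 3 (beside 2.72%). Without both HKO libraries numbered 1 the count in BSA was 27, beside 36.7% of all genes. PA against BSA then gave 10 in Flox (beside 13.9% of all genes) and 6 in HKO (beside 6.97%). With every library, the shares of all genes were 2.21% and 2.94%. PA against BSA gave 9 in Flox with only the groups compared, beside 15.8% of all genes. In HKO it gave 2 with a mean of at least 5 FPKM (beside 4.04%) and 3 with quantile normalization (beside 3.98%). It gave 1 there with limma-voom (beside 3.1%) and 2 with the length trend removed (beside 3.56%). Quantile normalization gave 1 for the difference in PA effect, beside 0.667% of all genes. In PA it gave 18 genotype calls (beside 38% of all), 6 higher and 12 lower, against 8 and 8. Apart from settings with fewer libraries or genes, the cause was not tested. The replicate block gave 12 calls in BSA (beside 20.4% of all genes) and 17 in PA (beside 35.3%). It gave 0 for PA against BSA in Flox (beside 1.72%) and HKO (beside 2.3%), and 0 for the difference in PA effect (beside 0.154%). Same-numbered libraries had correlations of 0.203, -0.015 and 0.316 in Flox and -0.243, 0.349 and -0.484 in HKO over their deviations from group means, and not every library correlated best with its own number, so the numbers were not taken as pairs. Genes near 1 FPKM are limited by depth, and 3 libraries a group limit every test.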
